A study of Mus musculus with 2 samples.

Results

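Long noncoding RNAs are transcripts that act without being translated, or whose main known role is to carry smaller RNAs in their exons and introns. In skeletal muscle precursors they include hosts of muscle microRNAs, RNAs of imprinted loci, and architectural RNAs of nuclear bodies. A list of 9 such genes was examined in primary mouse myoblasts: Mir133b, H19, Meg3, Rian, Mirg, Malat1, Neat1, Gas5 and Miat. They were taken by symbol from the probe sets that the platform annotation gives to 1 gene only, which covers 18193 genes in all. Of the 9 genes, 8 had such probe sets, 33 in total, and H19 had none of its own. The list was selected on gene names with earlier results of these arrays in view, and Mir133b had already been picked out by its difference between the arrays. All differences below are therefore descriptions, with no test.

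Myoblasts, the proliferating precursors of muscle fibres, came from newborn Sv129 mice and were grown on laminin and collagen. One array held RNA of cells given Wnt3a, a secreted protein that acts through β-catenin, at 100 ng/ml for 4 hours in DMEM with 2% horse serum. The other held RNA of cells kept for the same 4 hours in that medium without Wnt3a (control). There was 1 array per condition, so no value has a replicate and no p-value is possible. The labels do not say how many mice contributed or whether animals were pooled.

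Levels are given as log2(intensity + 1), and differences are Wnt3a minus control on that scale. A gene counted as measured where its brightest probe set reached a floor of 6 (an intensity of 63) on at least 1 array. The floor is a fixed brightness, not a detection limit. Of the 8 genes, 7 were measured, and Rian lay below the floor on all of its probe sets. Among probe sets, 20 of the 33 reached the floor on an array. The central 95% of the 11397 measured genes lay between -0.33 and 0.33. Of these genes 47.3% were higher on the Wnt3a array, with a median of -0.0057, the scale for all counts of higher and lower genes below. Probe sets of the same gene differed from each other with a pooled SD of 0.12, which covers noise between probes only. Each probe set has its own response, so values of different probe sets do not compare amounts of RNA. The same limit holds for the summed intensities and the count of brighter probe sets below.

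Of the 11 myoblast markers on the array 10 reached the floor, 5 higher and 5 lower with Wnt3a, and Msc did not. The myogenic factor Myod1 stood at 13.28 on the Wnt3a array and 13.41 on the control array, and Pax7, of muscle stem cells, at 11.08 on the Wnt3a array and 11.20 on the control array. Other markers differed more: the adhesion molecule Vcam1 was lower on its 3 probe sets (9.97 with Wnt3a and 10.60 in the control, -0.63), the receptor Met was lower on both of its probe sets (11.39 with Wnt3a and 11.84 in the control, -0.45), and Myf5 (12.45 with Wnt3a and 11.96 in the control, 0.49) and Des (11.23 with Wnt3a and 10.91 in the control, 0.32) were higher. Of the 10 airway epithelial markers 5 reached the floor, 3 higher and 2 lower with Wnt3a. Scgb1a1 differed most, at 5.96 on the Wnt3a array and 8.39 on the control array. Sftpc was also lower, at 5.24 with Wnt3a and 6.31 in the control (-1.07). Epcam (0.14) and Sftpb (0.09) were among the higher ones. The summed intensity of all 10 was 676 on the Wnt3a array and 958 on the control array. Of the fibroblast markers 3 of 11 reached the floor, with a summed intensity of 11089 with Wnt3a and 12806 in the control, nearly all of it from the collagen genes Col3a1 and Col1a2. Col3a1 stood at 13.19 with Wnt3a and 13.42 in the control (-0.24, and -0.54 on its other probe set), and Col1a2 at 10.46 with Wnt3a and 10.53 in the control (-0.07), while Pdgfra, Thy1 and Col1a1 were below the floor on both arrays. Of the leukocyte markers 5 of 11 did (664.9 with Wnt3a and 661.8 in the control), of the endothelial 2 of 10 (323.5 with Wnt3a and 357.8 in the control), of the Schwann cell 5 of 8 (963.3 with Wnt3a and 915.0 in the control), and of the smooth muscle markers 6 of 10 (12533 with Wnt3a and 10826 in the control). Most of the smooth muscle sum came from Acta2, at 13.07 with Wnt3a and 12.75 in the control (0.33). Of the 6 smooth muscle markers 4 were higher and 2 lower, Cspg4 (-0.22) and Notch3 (-0.10). Among the endothelial markers, Tek stood at 5.34 with Wnt3a and 6.16 in the control (-0.82), and Kdr was equal on both arrays. The part of cells other than myoblasts in the differences below was not tested. Axin2, a feedback target of β-catenin that serves as a check of the labels, stood at 10.25 on the Wnt3a array and 6.64 on the control array. The 42 spike-in probe sets were all lower on the Wnt3a array, with a median of -0.19. Scaling on them adds 0.19 to every difference, and the medians of all 11 related gene lists described below then lay above 0, between 0.096 and 0.21. The 3′ minus 5′ difference of the β-actin control probe sets was 0.60 on the Wnt3a array and 0.56 on the control array, and that of the Gapdh probe sets was -0.040 on the Wnt3a array and -0.023 on the control array.

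Several of the genes hold or neighbour smaller RNAs, and the microRNAs of the Mir133b locus are shown because this locus gave the largest difference of the list. The miR-133 family restrains and shapes muscle precursor growth and differentiation, and miR-206, encoded beside miR-133b on the same strand, promotes differentiation. Both microRNAs are largely confined to muscle. The sequences below are RefSeq's for GRCm38.p6, both on the plus strand, with the seed (bases 2 to 8, which select targets) in capitals.
miR-133b-3p at chr1:20682834-20682855: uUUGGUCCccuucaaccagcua
miR-206-3p at chr1:20679055-20679076: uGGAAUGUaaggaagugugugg

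The transcript annotated to Mir133b was higher with Wnt3a. Its only probe set read 343.8 intensity units on the Wnt3a array and 103.2 on the control array, which is 8.43 against 6.70 on the log2 scale. The difference of 1.73 corresponds to 3.31-fold. It ranked 13th from the top among the 11397 measured genes and lay above the floor on both arrays. It was the only listed gene past 2-fold. The same held for 0.254% of all measured genes, and among those whose brightest probe set averaged between 6 and 8 the share was 0.334%. Mir133b had been picked out by this same difference, so the shares do not measure how unusual it is. In bulk RNA, a change in the number of cells of a type and a change in RNA per cell cannot be told apart.

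The Mir133b probe set does not measure the microRNA. The labelling starts from polyadenylated RNA, and a mature microRNA is too short for a probe set of this kind, so what was read is a longer transcript of the locus. In mouse muscle such a host is known as linc-MD1, a cytoplasmic RNA that appears as myoblasts differentiate and binds miR-133 and miR-135. The annotation does not say whether this probe set reads linc-MD1 or another transcript. The nearest protein-coding genes on either side in the RefSeq table, looked up after the values were seen, were below the floor on both arrays. Pkhd1, a gene of kidney cilia, stood at 3.75 with Wnt3a and 3.79 in the control, and Il17a, a cytokine of T cells, at 5.21 with Wnt3a and 5.08 in the control.

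The mRNAs tied to this locus in muscle differed little between the arrays. Of 8 measured genes in a list of linc-MD1 and miR-133 targets, 4 lay above 0 and 4 below, with a median of 0.015 against -0.0057 for all measured genes. The largest differences were Ptbp2, a splicing regulator (-0.15), and Tagln2, an actin-binding protein (0.14), followed by the transcription factor Srf (-0.08) and the growth factor receptor Fgfr1 (-0.07). Their probe sets disagreed in sign: those at the floor ran from -0.10 to 0.14 for Tagln2, from -0.08 to 0.18 for Srf and from -0.07 to 0.16 for Fgfr1. For Ptbp2 only 1 probe set reached the floor, and the mean over both was 0.09. Maml1, a Notch coactivator, and Mef2c, a muscle transcription factor, are the mRNAs through which linc-MD1 was described in mouse; they were singled out after their values were seen. Maml1 stood at 10.25 on the Wnt3a array and 10.18 on the control array. Mef2c stood at 6.77 on the Wnt3a array and 6.71 on the control array. Both differences, 0.06 each, were smaller than the SD between probe sets of 1 gene.

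**Figure D1:**
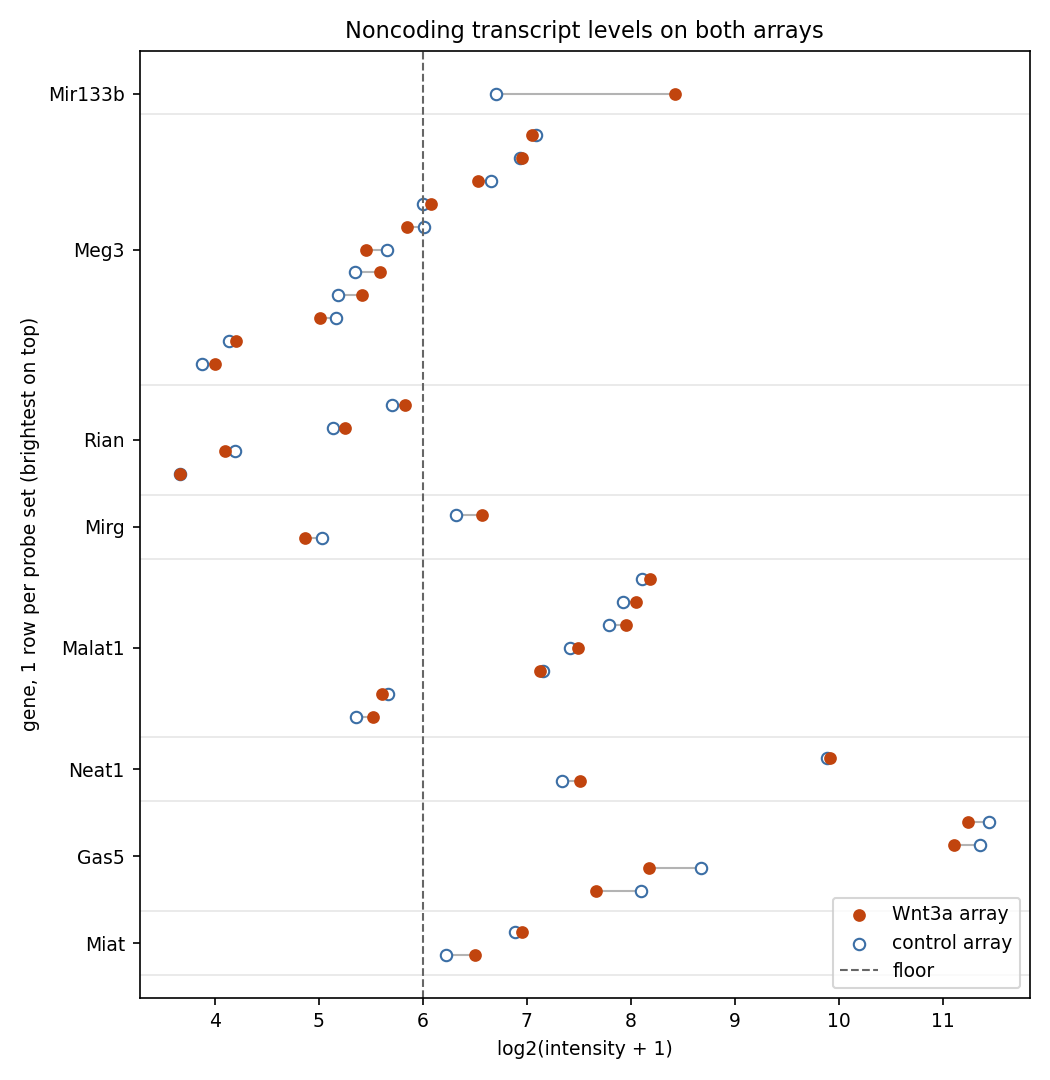
Level of every probe set of the 8 genes, as log2(intensity + 1) on the x axis, with 1 row per probe set and the brightest of each gene on top. Filled points are the Wnt3a array, open points the control array, and the dashed line is the floor of 6; the pair of points lies far apart for Mir133b (8.43 with Wnt3a and 6.70 in the control) and the filled point is left of the open one in all 4 rows of Gas5.

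Gas5 was lower on the Wnt3a array on each of its 4 probe sets. Gas5 is the host of several box C/D small nucleolar RNAs (snoRNAs), which guide methylation of ribosomal RNA; its spliced RNA is bound by ribosomes and quickly degraded, and it accumulates when growth stops. The RefSeq table places 8 snoRNA genes inside it. Its brightest probe set read 2419 intensity units with Wnt3a and 2795 in the control (11.24 and 11.45 on the log2 scale), a difference of -0.21. The next read 2202 with Wnt3a and 2628 in the control, a difference of -0.25. The 2 dimmer probe sets differed more, at 288.2 with Wnt3a and 406.9 in the control (-0.50) and at 202.7 with Wnt3a and 273.8 in the control (-0.43).

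The Gas5 differences thus ran from 1.16-fold to 1.41-fold lower, with a mean of -0.35 and an SD of 0.14 over the 4 probe sets, which read the same RNA and are no replicates. None passed 1.5-fold. A further probe set, annotated to both Snord47 and Gas5 and so not counted, read 8.71 with Wnt3a and 9.003 in the control (-0.30). Of 783 genes with at least 4 probe sets at the floor, all probe sets were lower in 20.4%, and all were below the spike-in median in 1.4%. Gas5 is among both. Scaled on the spike-ins, its probe sets ran from -0.31 to -0.019, and the brightest was then level within the SD between probe sets.

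The promoter windows of Gas5 are shown because it was the only measured gene of the list lower on every probe set at the floor among those with several. RefSeq gives 2 start sites, each with 250 bases before and 50 after. Capitals mark matches to CTTTG on either strand, the core letters read by the TCF/LEF partners of β-catenin. Each window holds 1 match. CTTTG occurs in 53.9% of the 32851 promoter windows in the table, and a match is only a match of letters.
Gas5 at chr1:161034351-161034650 (GRCm38.p6, plus strand): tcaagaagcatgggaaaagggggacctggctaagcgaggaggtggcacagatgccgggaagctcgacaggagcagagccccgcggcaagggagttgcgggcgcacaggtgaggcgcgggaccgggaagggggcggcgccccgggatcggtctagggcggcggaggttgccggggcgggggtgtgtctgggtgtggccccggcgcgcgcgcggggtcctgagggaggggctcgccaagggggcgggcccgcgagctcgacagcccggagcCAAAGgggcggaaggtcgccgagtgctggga
Gas5 at chr1:161034916-161035215 (GRCm38.p6, plus strand): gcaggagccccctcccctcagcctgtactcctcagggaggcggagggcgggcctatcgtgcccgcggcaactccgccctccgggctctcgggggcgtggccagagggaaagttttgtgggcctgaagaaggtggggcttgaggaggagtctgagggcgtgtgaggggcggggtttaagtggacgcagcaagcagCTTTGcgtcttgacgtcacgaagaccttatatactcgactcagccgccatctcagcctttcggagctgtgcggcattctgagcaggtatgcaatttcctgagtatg

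CTTTG was found in 5 of the 8 promoter windows that the table holds for 6 of the listed genes, Gas5, Miat, Meg3, Rian, Mirg and Malat1. The E-box CANNTG, the motif of myogenic factors, was found in 5 of the 8 (either strand, with no overlap between the motifs counted), against 72.3% of all windows. Its form CAGCTG was present only in the Malat1 window among these 8, against 16.3% of all windows.

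Several other spliced hosts of snoRNAs were lower beside Gas5, while the rest were level or slightly higher. Of 13 measured hosts, Gas5 included, 4 were higher, 8 lower and 1 equal (median -0.022, or 0.17 when scaled on the spike-ins). Of all measured genes 47.3% were higher, with a median of -0.0057. Snhg1 showed the largest, at 11.88 on the Wnt3a array and 12.27 on the control array (-0.38), and its 5 probe sets ran from -0.58 to -0.37. Snhg5 stood at 10.21 with Wnt3a and 10.59 in the control (-0.38). Only 1 of its 3 probe sets reached the floor, and the mean over all 3 was -0.14. Snhg4 (-0.23) and Snhg12 (-0.22) had 1 probe set each. Snhg17, named after its value was seen, gave -0.20. The remaining 7 ranged from -0.022 to 0.13. No host passed 1.5-fold in either direction.

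Factors of nonsense-mediated decay, the pathway that degrades Gas5 RNA, lay mostly close to 0. Of 7 measured factors 1 was higher and 6 lower (median -0.09, or 0.10 when scaled on the spike-ins). Of all measured genes 47.3% were higher. Smg6, Smg8 (-0.03) and Smg9 (-0.02) differed by less than the SD between probe sets of 0.12. Upf2, an adaptor of the core complex, differed most, at 7.67 on the Wnt3a array and 8.10 on the control array (-0.43). Only 1 of its 2 probe sets reached the floor, and the mean over both was -0.28. The kinase Smg1 (-0.14), the helicase Upf1 (-0.12) and the endonuclease Smg6 (-0.09) lay within the central 95% of genes.

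**Figure D2:**
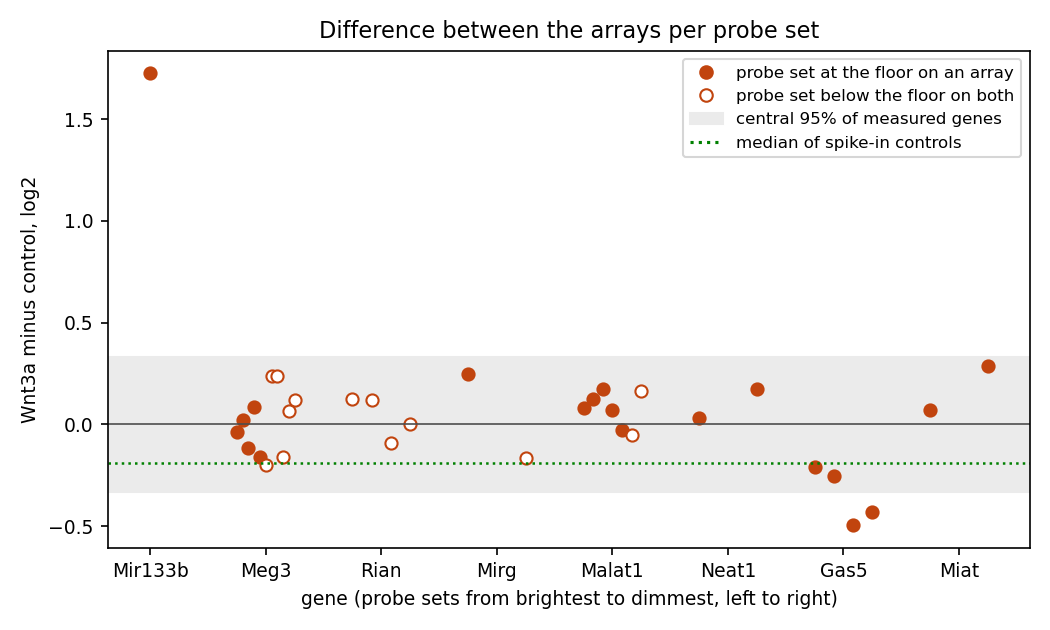
Wnt3a minus control difference (log2, y axis) of each probe set by gene (x axis), filled where the probe set reached the floor on an array and open where it did not. The grey band is the central 95% of measured genes (-0.33 to 0.33) and the dotted line the spike-in median (-0.19); Mir133b lies far above the band at 1.73, 2 Gas5 probe sets lie below it, and all others are inside.

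The 3 noncoding genes of the imprinted Dlk1-Dio3 cluster did not share a difference between the arrays. Meg3, Rian and Mirg are expressed from the maternal chromosome, possibly as parts of 1 long transcript, and carry many microRNAs and snoRNAs; in muscle precursors the locus is known as active in the quiescent and proliferating state. Within the RefSeq gene bounds lie 2 microRNA genes for Meg3, 3 microRNA and 11 snoRNA genes for Rian, and 10 microRNA genes for Mirg. All their array values were low.

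Meg3 was level, or 0.15 higher when scaled on the spike-ins. Its brightest probe set stood at 7.05 with Wnt3a and 7.09 in the control (-0.04), the second at 6.96 with Wnt3a and 6.94 in the control (0.02), and the third at 6.53 with Wnt3a and 6.65 in the control (-0.12). The other pair that reached the floor on 1 array gave 0.08 and -0.16. Over all 11 probe sets 6 were higher and 5 lower, between -0.20 and 0.24, so the probe sets disagreed in sign on both sides of 0.

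Mirg was higher on the probe set that reached the floor and lower on the one that did not. The first stood at 6.57 on the Wnt3a array and 6.32 on the control array (0.25, or 1.19-fold). The second stood at 4.87 on the Wnt3a array and 5.03 on the control array (-0.17). The brightest Rian probe set stood at 5.83 with Wnt3a and 5.71 in the control (0.13), the next at 5.25 with Wnt3a and 5.13 in the control (0.12), and the third at 4.10 with Wnt3a and 4.19 in the control (-0.09). The fourth held the identical value of 11.7 intensity units on both arrays, as did 1689 of the 45101 probe sets. Rian thus gave no value at the floor on either array.

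Genes around the cluster gave no common shift either. The paternally expressed neighbour Dlk1, a Notch-related inhibitor of differentiation, was below the floor on both arrays, at 5.75 with Wnt3a and 5.49 in the control. The flanking genes Yy1, a transcription factor (-0.11), Wars, a tRNA synthetase (-0.0021), and Wdr25 (0, the same value on both arrays) were lower or equal. With Meg3 and Mirg these make 5 measured genes, 1 higher, 3 lower and 1 equal, with a median of -0.0021.

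For H19, the maternally expressed RNA beside Igf2 that carries miR-675, no probe set of its own exists in the annotation. One probe set is assigned jointly to Mir675 and H19 and was therefore not counted for either. The RefSeq table places the Mir675 gene inside H19, and a mature microRNA is too short for such a probe set. Which longer transcript is read was not checked. The shared probe set read 14.72 on the Wnt3a array and 14.76 on the control array (-0.03), with only 15 probe sets brighter on both arrays. Igf2, the growth factor gene that shares its enhancers, stood at 12.29 with Wnt3a and 12.26 in the control (0.02). Among 5 measured genes of that domain 4 were higher and 1 lower (median 0.022); Ins2 (0.26), Mrpl23, a mitochondrial ribosomal protein (0.08), and the troponin gene Tnnt3 (-0.04) differed most beside Igf2. Of 4 genes reported as targets of miR-675, Cdc6, Smad1 and Smad5 among them in myoblasts, 1 was higher and 3 lower (median -0.09), with the replication factor Cdc6 at -0.35, the BMP effectors Smad1 at -0.15 and Smad5 at 0.09, and the receptor Igf1r at -0.03. The probe sets of Smad5 ran from -0.14 to 0.09 and those of Igf1r from -0.08 to 0.12.

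The imprinted genes known to vary together with H19 in mouse held 1 gene past 1.5-fold. Of 12 measured, Meg3 included, 5 were higher and 7 lower (median -0.046). The cell cycle inhibitor Cdkn1c was 2.00-fold lower, at 8.13 with Wnt3a and 9.14 in the control, on 1 probe set. Over all measured genes 0.342% were at least 1.5-fold lower. Peg10, a retrotransposon-derived gene (-0.38), Peg3, a zinc finger gene (-0.37, and -0.49 to -0.37 on 3 probe sets at the floor), and Zim1 (-0.35) followed.

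The nuclear architectural RNAs Malat1 and Neat1 differed little. They are neighbours, with no protein-coding gene between them in the RefSeq table. Malat1 gathers in nuclear speckles, sites rich in splicing factors, and Neat1 is the scaffold of paraspeckles, bodies that hold RNAs and RNA-binding proteins in the nucleus. The brightest Neat1 probe set stood at 9.92 with Wnt3a and 9.88 in the control (0.03). The dimmer one stood at 7.51 with Wnt3a and 7.34 in the control (0.18). Both were higher, by 1.02-fold and 1.13-fold.

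Malat1 had 7 probe sets, 5 of them at the floor. The brightest stood at 8.19 on the Wnt3a array and 8.11 on the control array (0.08). The second stood at 8.05 with Wnt3a and 7.92 in the control (0.12). The third stood at 7.96 with Wnt3a and 7.79 in the control (0.17). At the floor 4 were higher and 1 was lower, between -0.03 and 0.17, with a mean of 0.08 and an SD of 0.07. The 2 probe sets below the floor gave -0.05 and 0.16. Frmd8, the nearest protein-coding gene on the Neat1 side, stood at 9.98 with Wnt3a and 10.03 in the control (-0.05).

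Proteins of both bodies were spread around 0. Of 14 measured paraspeckle proteins 7 were higher and 7 lower (median 0.0081). Tardbp (-0.29, and -0.31 to 0.04 over its 5 probe sets), Hnrnph3 (-0.20), Hnrnpa1 (-0.19) and Pspc1 (-0.13), all RNA-binding proteins, differed most. Of 13 measured nuclear speckle proteins 5 were higher and 8 lower (median -0.05). The largest differences were those of Pnn (-0.31, lower on its 3 probe sets), Luc7l3 (-0.25), Srsf3 (-0.21, lower on its 6 probe sets) and Sf3b1 (-0.15), which act in splicing.

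Miat was slightly higher on both of its probe sets. Miat, also called Gomafu, is a nuclear RNA that binds splicing regulators and was described in neurons and heart. The brighter probe set stood at 6.96 on the Wnt3a array and 6.89 on the control array (0.07). The dimmer stood at 6.51 on the Wnt3a array and 6.22 on the control array (0.29, or 1.22-fold). Of 6 splicing regulators tied to it, 3 were higher, 2 lower and 1 equal, with a median of 0.016. Mbnl2 (-0.20), Qk (-0.16), Celf1 (0.13) and Mbnl1 (0.08) differed most. Qk was lower on its 7 probe sets, whereas those at the floor ran from -0.20 to 0.13 for Mbnl2 and from -0.09 to 0.13 for Celf1.

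**Figure D3:**
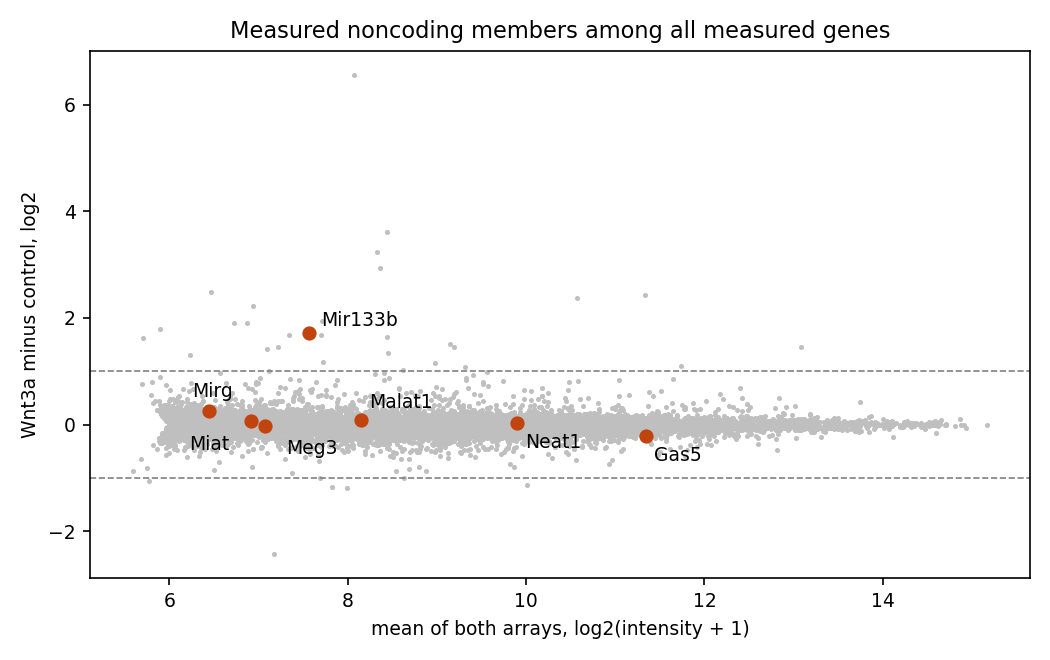
Wnt3a minus control difference (log2, y axis) against the mean log2(intensity + 1) of both arrays (x axis) for the 11397 measured genes, each by its brightest probe set, with the 7 measured listed genes in orange and dashed lines at 2-fold. Mir133b lies above the upper line at 1.73 and the other 6 lie between -0.21 and 0.25.

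By brightest probe set, 5 of the 7 measured genes were higher on the Wnt3a array (Mir133b, Mirg, Malat1, Miat and Neat1) and 2 lower (Gas5 and Meg3), with a median of 0.07, against 47.3% higher and a median of -0.0057 for all measured genes. Past 1.5-fold, 1 was higher and 0 lower, where the shares of all measured genes were 0.886% higher and 0.342% lower. The gene past 1.5-fold was Mir133b, which had been picked out by this same difference and also enters the count and median above. The shares therefore cannot show an excess among the listed genes. After scaling on the spike-ins 6 were higher and Gas5 alone was lower.

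Other long noncoding RNAs on the arrays set the scale for these values. Of 251 further measured genes that RefSeq classes as long noncoding, 125 were higher and 120 lower (median 0), and 0.398% passed 1.5-fold in either direction. The gene that did was D830025C05Rik, named after its value was seen, at 6.79 with Wnt3a and 6.19 in the control. In a list of well-studied ones, 10 were measured, 6 higher and 4 lower (median 0.018). Airn, which silences imprinted neighbours (0.23, with a mean of -0.0041 over its 5 probe sets), Jpx, an activator of Xist (0.22), Pvt1, the neighbour of Myc (-0.21, lower on the 4 probe sets at the floor), and Xist, the RNA of X inactivation (0.16), differed most. All of them lay within the central 95%. Only 1 of the Airn probe sets reached the floor.

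**Figure D4:**
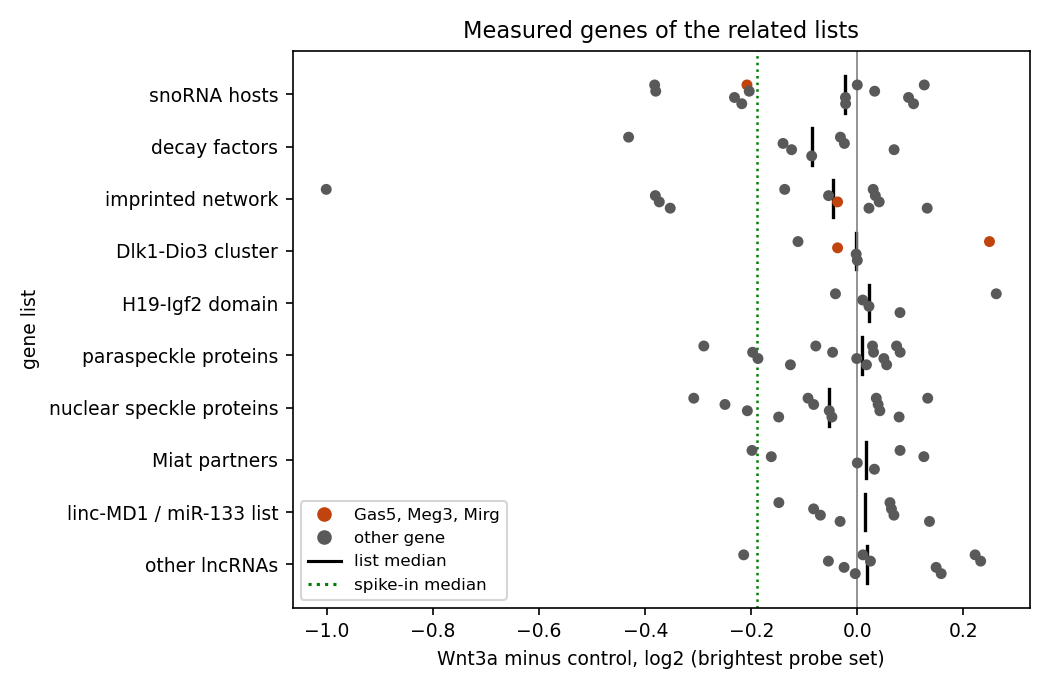
Wnt3a minus control difference (log2, x axis) of each measured gene, by its brightest probe set, in 10 related gene lists (y axis). Orange points are Gas5, Meg3 and Mirg, grey points other genes, black bars the list medians and the dotted line the spike-in median of -0.19; the medians lie between -0.09 and 0.022, and the snoRNA hosts run from -0.38 to 0.13.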

How the data were processed

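Biotin-labelled cRNA from total RNA of myoblasts was made with an Affymetrix 3′ IVT Express kit, per the labels' protocols, and read on 1 array per condition. The values deposited are intensities on a linear scale, 1 for each probe set, from 7.07 to 36604 on the Wnt3a array and from 7.09 to 37075 on the control array. RMA, affy and limma are named, per the submitters' processing notes, without versions or settings; how the values became linear, and the genome build, are not given in the sources used here. Arrays were not renormalized, and their number limits the precision.

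Values were taken as log2(intensity + 1), which slightly shrinks differences of dim probe sets. GEO's platform annotation assigned 34945 probe sets to 1 gene, 932 to several and 9160 to none, and 64 were controls. Each gene was represented by its brightest probe set over both arrays. Named were all listed genes, up to 4 measured genes per related list with the largest differences. Genes nearest to Mir133b by the values of both arrays are not reported, since that distance sets levels of different probe sets against each other. Genes that RefSeq classes as protein-coding, and the listed genes themselves, were left out of the list of other long noncoding RNAs (2 in all). Genes and lists were chosen with earlier results of these data known. Alternatives were no pseudocount, a pseudocount of 16, means over probe sets, probe sets named _x_at or _s_at left out, a loess trend (span 0.3) removed, quantile normalization, spike-in scaling, a median of 0, and other floors. The counting of folds was tested on simulated data. Sequences are RefSeq's (GRCm38.p6). Python 3.11.15, numpy 2.4.6, pandas 2.3.3, statsmodels 0.14.6 and matplotlib 3.10.9 were used.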

Additional observations from a re-analysis of the deposited data

How the results depend on the processing

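Mir133b was higher in all 12 alternatives (1.59 to 1.91) and Gas5 lower in all 12 (-0.35 to -0.019). The settings of the floor could not change the difference of any gene, only whether it was counted. A change of pseudocount could not change the sign of a probe set's difference, and spike-in scaling could only raise a difference. Leaving out probe sets named _x_at or _s_at left the brightest probe set of each measured listed gene in place. Mir133b has 1 probe set, so the choice or averaging of probe sets could not change its value either. It had also been picked out by this same difference. In the main setting Neat1 (0.03), Malat1 (0.08) and Miat (0.07) differed by less than the SD between probe sets of 0.12. Neat1 and Malat1 were higher in all 12, Miat in all 11 and Mirg in all 10 in which they were measured. Meg3 was lower in 9 of 10, at 0.15 under spike-in scaling. That scaling moved the median of the listed genes to 0.26, left 1 of them lower, moved the counts of all measured genes past 1.5-fold to 210 higher and 17 lower, against 101 and 39, and turned the median of the snoRNA hosts to 0.17. With a floor of 8, 3 listed genes were higher and 1 lower, 60 genes in all passed 1.5-fold upward, and the median of the snoRNA hosts was -0.20, over fewer genes. With the mean of all probe sets 4 listed genes were higher and 1 lower. The means of Meg3 and Mirg lay below the floor and were not counted. Their differences by that mean were 0.0080 for Meg3 and 0.042 for Mirg. The mean over probe sets at the floor, chosen after seeing the data, gave -0.35 for Gas5. The cause of the spike-in shift was not tested. No paired analysis was possible because each condition has 1 array. Dim signal limits Rian, Meg3, Mirg and Miat, whose values lay near or below the floor. It also limits Mir133b, whose control value of 6.70 was near the floor and lower than those of Meg3 (7.09) and Miat (6.89). With a pseudocount of 16 the Mir133b difference fell to 1.59.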

Other observations

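A share of the deposited intensities sat on a regular grid. On the Wnt3a array 1941 values (4.3%) and on the control array 1975 values (4.38%) lay on steps of 0.5 units that started from the same remainder, 0.2386, to within 0.001, where 0.4% would be covered by that tolerance if remainders were spread evenly. In 1731 probe sets both values did so. Among the listed genes these were both Neat1 probe sets and the brightest of Malat1, whose Wnt3a and control intensities differed by exactly 21.5, 21 and 16 units. The origin of the steps was not tested.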
